A study of Mus musculus with 2 samples.

Results

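Vascular endothelial growth factor (VEGF) and angiopoietin signalling was described through 10 genes, found by their symbols among the 31053 genes counted. They were the ligands Vegfa, Vegfc, Pgf and Angpt2, the receptors Kdr, Flt1, Flt4 and Tek, and the co-receptors Nrp1 and Nrp2, and each symbol had 1 row. Cells of the aortic arch were measured by single-cell RNA sequencing in 1 library per diet, normal diet (ND) and high-fat diet (HFD). Each library pooled cells of 2 aortas from male C57BL/6 mice of 16 weeks of age. All mice, those on normal diet included, were Apoe-/-, that is, they lacked the apolipoprotein that clears remnant lipoproteins, and wild-type mice were not compared. With 1 library per diet nothing could be tested, and the diet cannot be told apart from the library. Levels are UMIs (counted RNA molecules) of a gene per 1000000 UMIs of the same cells (CPM), with the exact 95% Poisson interval in parentheses. Ratios between libraries are log2 of HFD over ND with an exact conditional binomial interval. Both intervals cover counting error only, not the spread between mice, and are too narrow where few cells hold most UMIs.

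VEGF ligands act on receptor tyrosine kinases of endothelial cells. Vegfa binds KDR (VEGFR2), which carries most of its growth and permeability signal, and FLT1 (VEGFR1), which binds tightly, signals weakly and limits free ligand. Placental growth factor (Pgf) binds FLT1, and Vegfc acts mainly through FLT4 (VEGFR3), the receptor of lymphatic endothelium. Neuropilins bind VEGFs and class 3 semaphorins beside these receptors. Angiopoietins act through TEK (TIE2), where Angpt1 is an activator that keeps vessels quiet and Angpt2, stored in endothelial cells, mostly opposes it.

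Promoter sequences are shown for the receptors and the co-receptor that the results turn on: Kdr and Flt1, which separated capillary from luminal endothelium, Tek, which stood the other way, and Nrp2, which differed between the libraries. The bases precede the annotated gene start, are given 5′ to 3′ on the strand of the gene and come from RefSeq on GRCm38.p6. They lie at chr5:75978459-75978705 (minus strand), chr5:147726012-147726261 (minus strand), chr1:62703067-62703284 (plus strand) and chr4:94739039-94739288 (plus strand). Capitals mark GGAAG on either strand, letters that contain the core of ETS factor sites, a family with endothelial members.
Kdr: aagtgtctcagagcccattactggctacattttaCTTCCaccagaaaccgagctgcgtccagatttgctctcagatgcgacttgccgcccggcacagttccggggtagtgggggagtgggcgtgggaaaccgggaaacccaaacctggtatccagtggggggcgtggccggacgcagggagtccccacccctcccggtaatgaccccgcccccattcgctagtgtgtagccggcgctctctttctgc
Flt1: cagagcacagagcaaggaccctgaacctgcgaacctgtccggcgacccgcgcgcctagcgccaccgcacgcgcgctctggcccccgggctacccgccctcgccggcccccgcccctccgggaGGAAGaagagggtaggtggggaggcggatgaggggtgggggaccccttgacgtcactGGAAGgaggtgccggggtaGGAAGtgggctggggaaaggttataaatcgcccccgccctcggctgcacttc
Nrp2: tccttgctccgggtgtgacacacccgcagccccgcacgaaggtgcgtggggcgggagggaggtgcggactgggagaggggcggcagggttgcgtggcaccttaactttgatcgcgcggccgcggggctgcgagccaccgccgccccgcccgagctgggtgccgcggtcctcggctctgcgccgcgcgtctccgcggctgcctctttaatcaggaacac
Tek: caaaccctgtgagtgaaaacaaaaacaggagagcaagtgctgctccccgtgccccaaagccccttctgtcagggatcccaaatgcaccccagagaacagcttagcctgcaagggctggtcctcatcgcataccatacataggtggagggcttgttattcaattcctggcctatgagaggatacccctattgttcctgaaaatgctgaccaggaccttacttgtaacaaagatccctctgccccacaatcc
The letters occurred 3 times before Flt1 and 1 time before Kdr, and were not in the windows of Nrp2 and Tek. RefSeq windows of 250 bases were matched for 9 of the 10 genes, all but Angpt2, 11 windows in all. GGAAG was in 6 of these 11 and in 64.1% of all 32851 windows. ACGTG, the core of hypoxia response elements, was in 1 of 11 and in 16.6% of all, on either strand. AGATAA, a site of zinc finger factors of blood and endothelium, was likewise in 1 of 11 and in 9.99% of all. These matches describe letters and not bound factors. By GENCODE annotation on mm10, the genes lie at Kdr (ENSMUSG00000062960) chr5:75932827-75978458, Flt1 (ENSMUSG00000029648) chr5:147561604-147726011, Flt4 (ENSMUSG00000020357) chr11:49609263-49652739, Nrp1 (ENSMUSG00000025810) chr8:128358604-128503363, Nrp2 (ENSMUSG00000025969) chr1:62703285-62818695, Tek (ENSMUSG00000006386) chr4:94739289-94874976, Vegfa (ENSMUSG00000023951) chr17:46016993-46032369, Vegfc (ENSMUSG00000031520) chr8:54077606-54187096, Pgf (ENSMUSG00000004791) chr12:85166635-85177790 and Angpt2 (ENSMUSG00000031465) chr8:18690263-18741562, and all are annotated as protein coding.

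In all, 8155 cells were kept, 5416 of ND and 2739 of HFD, with medians of 3732.5 and 5336 UMIs and of 16.8% and 21.9% mitochondrial UMIs, and 1 kept barcode was shared. Cells were grouped by UMIs of marker genes, none of them among the 10, and 421 and 338 cells that passed gates of several lineages were set apart. Smooth muscle cells were few for aorta, 30 and 7, and airway epithelial cells numbered 45 and 0. Endothelial cells, with a UMI each of Pecam1 and Cdh5, numbered 2080 and 1159. The summed level of 4 haemoglobin genes in them was 5639.6 CPM in ND and 34417 CPM in HFD, and their median mitochondrial share was 16.7% and 22.5%. The part of these values in the ratios between libraries was not tested, beyond the alternatives given with the limits.

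Endothelial cells were divided further. Luminal cells, with 2 UMIs each of Vwf and Vcam1, numbered 182 and 61, and held the arterial gene Gja4, which the gate did not use, at 541 and 375 CPM. Capillary cells, with 2 UMIs of Gpihbp1, the capillary anchor of lipoprotein lipase, numbered 1444 and 796, and those with a UMI of Cxcl9, a chemokine induced by interferon gamma, were 830 and 175 of them. Both kinds of capillary cells were joined after the values were seen. Cells gated by Sema3g with Stc1 or Hey1, 288 and 234, were meant as arteriolar, but Gja4 was at 5.26 and 9.44 CPM and Gpihbp1 at 2464 and 2283 CPM in them. These values go against that name, and they are called Sema3g-gated cells. Lymphatic cells, with at least 2 of Prox1, Mmrn1, Ccl21a and Reln, numbered 28 and 6, with Lyve1 at 1461 and 614 CPM. The other endothelial cells, 138 and 62, stayed unnamed, although the luminal gene Cytl1 stood at 1762 and 1667 CPM in them.

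The VEGF receptors were mostly counted in endothelial gates. Kdr stood at 885 (867 to 903) CPM in ND and 1131 (1106 to 1156) CPM in HFD endothelial cells, and at 12.3 and 18.9 CPM in all other gated cells. Flt1 stood at 1048 (1029 to 1067) and 1306 (1280.0 to 1333) CPM in endothelial cells and 17.4 and 26.1 CPM in the others. Flt4 stood at 68.6 (63.8 to 73.8) and 54.7 (49.3 to 60.4) CPM in endothelial cells and 1.23 and 0.899 CPM in the others. The smallest of these 6 ratios of endothelial to other cells was 50.1-fold, for Flt1 in HFD, and the largest 72.2-fold, for Kdr in ND. Cells that passed the endothelial gate and that of another lineage were left out on both sides. For Kdr, log2 of endothelial over other cells, 6.17 in ND and 5.91 in HFD, fell as far as 2.58 and 2.31 in 11 alternatives. The lowest values were 2.56 and 2.26 for Flt1 and 2.76 and 2.28 for Flt4.

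With a limit of 4-fold, which was chosen after the values were seen, 8 of 10 genes were higher in endothelial than in other gated cells of ND, where 6.44% of all genes with at least 100 UMIs were. In HFD they were 7 of the 9 genes with that many UMIs, where 7.64% of all genes were. On the lower side stood 0 of 10 and 0 of 9, against 11.5% and 10.4% of all genes. Vegfa was below the limit in both libraries, at 53.0 and 53.8 CPM in endothelial and 69.0 and 58.6 CPM in other cells. Vegfc was below it in ND and had too few UMIs to count in HFD, and Nrp2 reached 3.46-fold in HFD. The receptors were thus on the endothelial side, and the ligand Vegfa had sources in many gates.

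**Figure D1:**
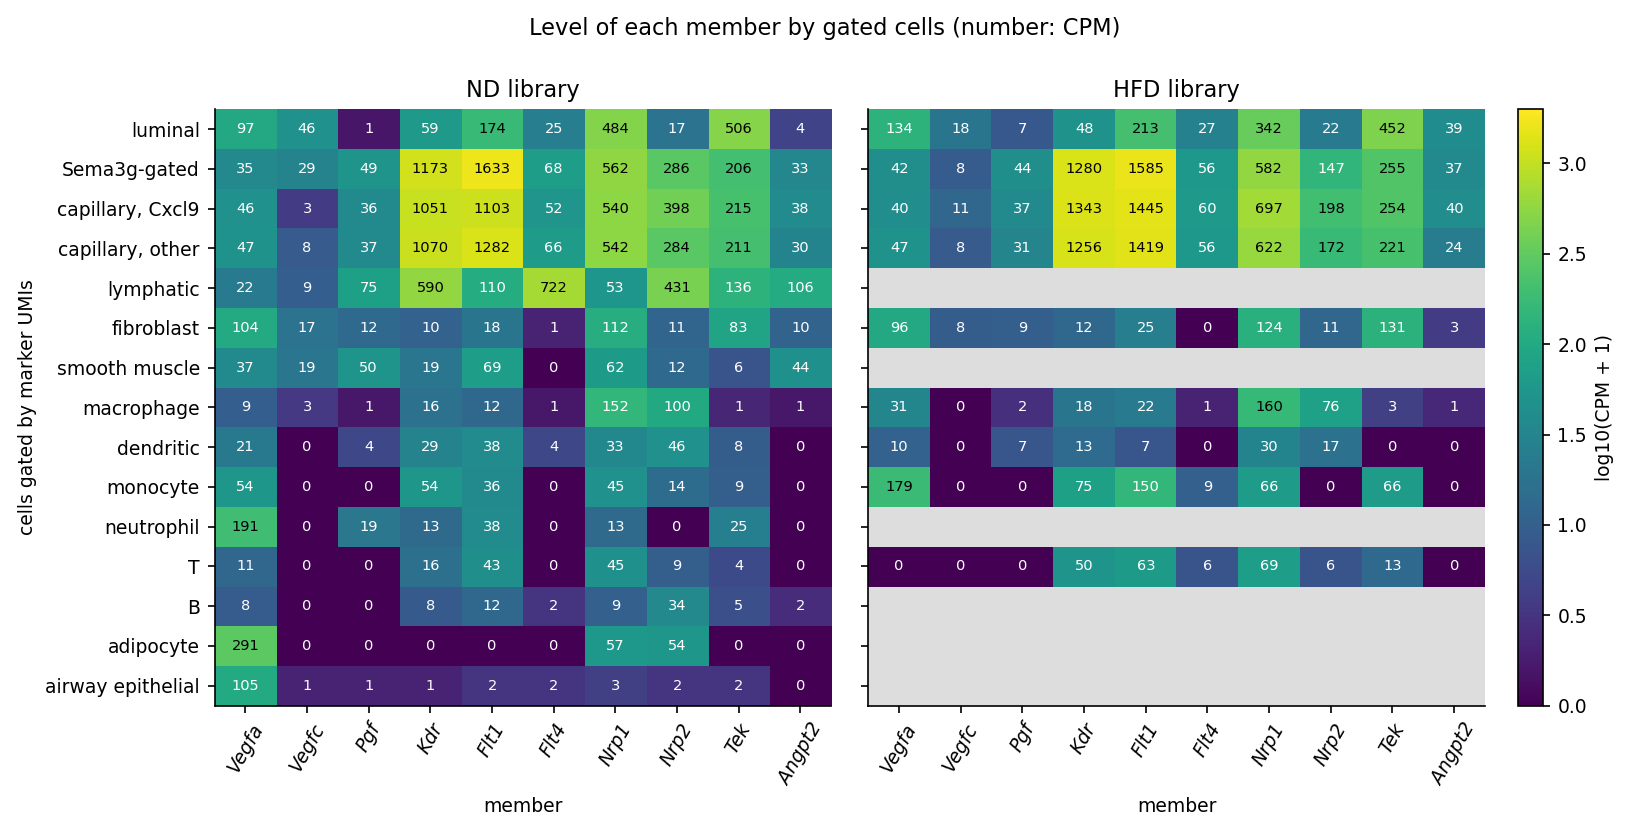
Level of the 10 genes in cells grouped by marker UMIs, in the ND and the HFD library, with colour for log10 of CPM + 1 and the CPM printed in each field. Grey marks groups of fewer than 20 cells. Kdr and Flt1 exceed 1000 CPM in Sema3g-gated and capillary cells of both libraries and stand at 59.2 and 174 CPM in luminal cells of ND.

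Within the endothelium, Kdr and Flt1 were much lower in luminal than in capillary cells. Kdr was at 59.2 (48.0 to 72.1) CPM in luminal cells of ND and 48.4 (31.9 to 70.4) CPM in HFD, from 98 and 27 UMIs. Capillary cells had 1057 (1032 to 1082) and 1278 (1245 to 1312) CPM, 17.9-fold and 26.4-fold more. The luminal interval of Kdr overlapped with those of some immune gates. In ND they included monocytes, at 54.3 CPM, and dendritic cells, at 29.2 CPM. In HFD they included T cells, at 50.2 CPM, and monocytes, at 75.2 CPM. In these HFD cells 6 endothelial markers summed to 483 CPM (T cells) and 789.5 CPM (monocytes), and their part was not tested. Flt1 was at 174 (154 to 195) and 213 (177 to 255) CPM in luminal and 1159.9 (1134 to 1186) and 1426 (1391 to 1461) CPM in capillary cells, 6.67-fold and 6.68-fold more. For both receptors the luminal and capillary intervals lay far apart in each library.

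The share of cells with a UMI showed the same order. In ND, 92.6% of capillary cells had a UMI of Kdr and 26.4% of luminal cells, although luminal cells were deeper, with a median of 7309 UMIs against 3553. After each cell was thinned to 1000 UMIs, which left out 1 ND capillary cell, the shares were 62.5% and 5.49%. B cells, which should lack Kdr, had a thinned share of 1.61%, and 2.76% at their full median depth of 3559 UMIs. In HFD the thinned shares were 67.6% in capillary cells, 3.28% in luminal cells and 6.67% in the 15 B cells. These B cells were too few to set a background, so whether the luminal share of HFD lay above one cannot be told.

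Nrp2 and the ligand Pgf were also lower in luminal cells. Nrp2 was at 16.9 (11.2 to 24.4) CPM in luminal and 362 (347 to 377) CPM in capillary cells of ND, and at 21.5 (11.1 to 37.6) and 179 (166 to 192) CPM in HFD. Its 28 luminal UMIs of ND came from 11 cells and its 12 of HFD from 5, and 1 ND cell held 11. Pgf had 1 UMI in 182 luminal cells of ND, 0.604 CPM against 36.4 CPM in capillary cells, and 4 UMIs in HFD, 7.17 against 32.4 CPM. Angpt2 was at 3.62 (1.33 to 7.89) CPM in luminal and 35.2 (30.8 to 40.1) CPM in capillary cells of ND, but at 39.4 and 28.3 CPM in HFD. That luminal value of HFD rested on 22 UMIs in 6 cells, 17 of them in 1 cell.

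Tek, Vegfa and, in ND, Vegfc were higher in luminal cells. Tek, the angiopoietin receptor, was at 506 (472 to 541) CPM in luminal and 214 (202 to 225) CPM in capillary cells of ND, and at 452 (398 to 511) and 229 (216 to 244) CPM in HFD, 2.37-fold and 1.97-fold higher. Vegfa was at 97.2 (82.8 to 113) and 46.5 (41.4 to 52.1) CPM in ND, and at 134 (106 to 169) and 44.9 (38.9 to 51.6) CPM in HFD. Vegfc was at 45.9 (36.2 to 57.4) and 4.34 (2.88 to 6.27) CPM in ND, 10.6-fold higher. In HFD the 10 luminal UMIs of Vegfc gave 17.9 (8.60 to 33.0) CPM, an interval that overlapped with that of capillary cells, 8.76 (6.23 to 12) CPM. Nrp1, the neuropilin that binds VEGFA beside KDR, was at 484 (451 to 518) and 541 (523 to 559) CPM in ND, and at 342 (296 to 395) and 641 (618 to 665) CPM in HFD. Flt4 was 2.27-fold and 2.11-fold lower in luminal cells.

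Counted at 4-fold, 5 of 10 genes were lower in luminal than in capillary cells of ND (Kdr, Flt1, Nrp2, Pgf and Angpt2), where 5.58% of all genes were. In HFD they were 4 of the 9 genes counted (Kdr, Flt1, Nrp2 and Pgf), where 6.06% of all genes were. On the higher side stood 1 of 10 in ND, Vegfc, against 4.91% of all genes, and 0 of 9 in HFD against 3.91%. Without the luminal cells that had a UMI of Gpihbp1, a choice made after the values were seen, Kdr was at 35.7 and 28.7 CPM and Nrp2 at 2.85 and 14.3 CPM in luminal cells. All 5 fibroblast markers were counted in luminal cells, 1330.2 and 779.8 CPM in sum against 58.9 and 65.2 CPM in capillary cells, and 1 of the 5 made up 1179 and 604 CPM of the luminal sums. The part of such transcripts in the luminal values was not tested.

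**Figure D2:**
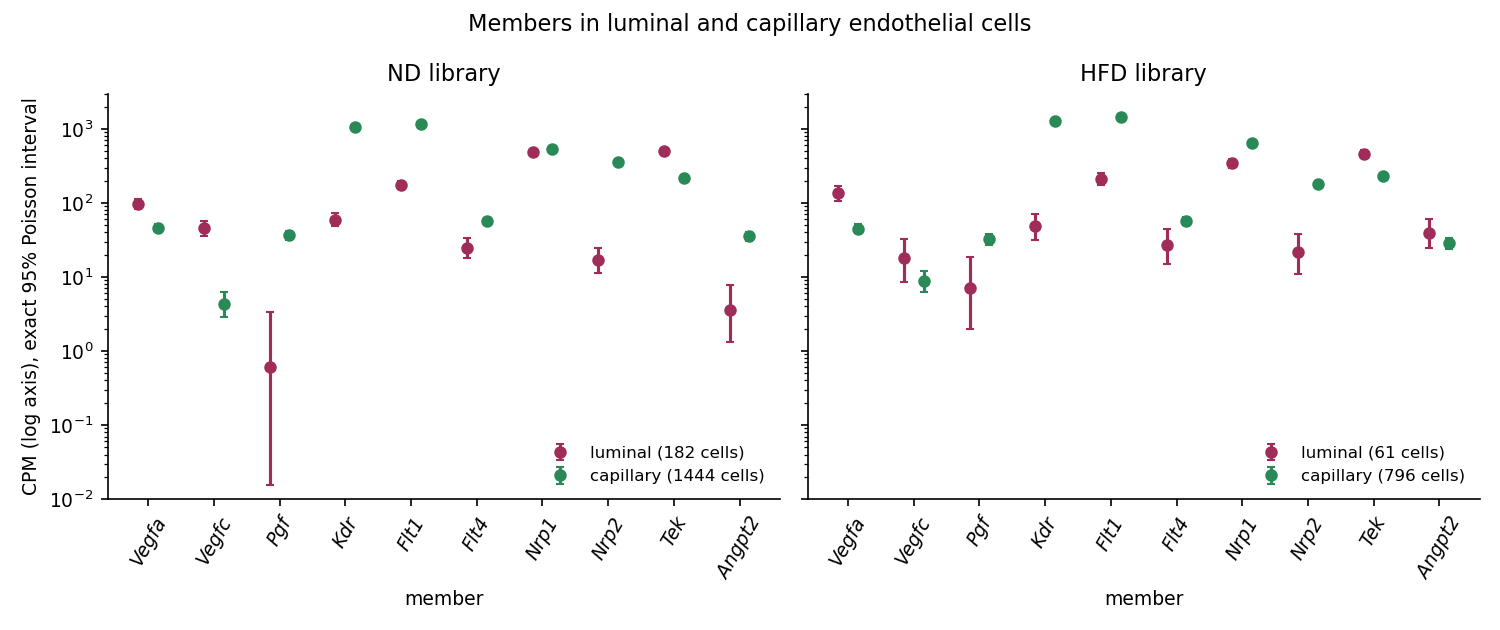
CPM (log axis) of the 10 genes in luminal (182 and 61 cells) and capillary cells (1444 and 796 cells) of the ND and HFD libraries, with points for the level and bars for the exact 95% Poisson interval. Kdr, Flt1, Nrp2 and Pgf lie lower in luminal cells of both libraries, and Tek and Vegfa lie higher.

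Sema3g-gated cells differed from capillary cells by at most 1.41-fold in ND in all of the 10 genes but Vegfc. Flt1 was at 1633 (1576 to 1692) CPM in Sema3g-gated cells of ND, 1282 (1233 to 1332) CPM in capillary cells without Cxcl9 and 1103 (1072 to 1135) CPM in those with Cxcl9, and these intervals did not overlap. Nrp2 had another order, with 286 (263 to 311), 284 (261 to 308) and 398 (379 to 417) CPM, highest in cells with Cxcl9. Vegfc was at 28.9 (21.8 to 37.7) CPM in Sema3g-gated cells of ND, above 7.81 (4.46 to 12.7) and 2.73 (1.41 to 4.76) CPM in the capillary groups. In HFD no such separation of Vegfc was seen, with 8.26, 7.86 and 11.4 CPM in the same order. Flt1 in HFD was at 1585 (1525 to 1646), 1419 (1379 to 1460) and 1445 (1376 to 1516) CPM in that order, and the capillary intervals overlapped. Nrp2 in HFD was at 147 (129 to 166), 172 (158 to 187) and 198 (173 to 225) CPM, where the capillary intervals overlapped too.

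Lymphatic cells were set apart by high Flt4 and, in ND, by little Flt1 and Nrp1. Flt4 was at 722 (616 to 841) CPM in the 28 cells of ND and 579.7 (338 to 928) CPM in the 6 of HFD, 12.8-fold and 10.2-fold its capillary level. Nrp2 was at 431 (350.2 to 526) and 205 (75.1 to 445) CPM. These intervals overlapped with those of capillary cells with Cxcl9, at 398 (379 to 417) and 198 (173 to 225) CPM. Kdr was at 589.8 (494 to 699) and 648 (390.1 to 1012) CPM. In ND, Flt1 was at 110.0 (71.2 to 162) CPM and Nrp1 at 52.8 (27.3 to 92.3) CPM, 10.5-fold and 10.2-fold below capillary cells.

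In the order of levels, many neighbours did not differ beyond their intervals. Of 17 groups with at least 20 cells in ND, Kdr had 13 of 16 neighbouring pairs with overlapping intervals, Flt1 12, Tek 13, Vegfa 15 and Pgf, Vegfc and Angpt2 16 each. The clear steps of Kdr in ND lay below Sema3g-gated cells, between capillary and lymphatic cells and between the unnamed endothelial cells, at 434 (378 to 496) CPM, and luminal cells. For Tek in ND they lay below luminal cells, below the unnamed endothelial cells, at 340.3 (291 to 396) CPM, and below fibroblasts, at 83.0 (74.1 to 92.8) CPM. The 3 genes with fewest endothelial UMIs, Pgf, Vegfc and Angpt2, thus allow no order beyond a few groups.

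Receptors were also described together in single capillary cells after thinning. A UMI of both Kdr and Flt1 was found in 41.8% of 1443 ND cells, beside a product of the single shares of 40.1%, and in 50.4% of 796 HFD cells beside 49.0%. Kdr and Nrp2 were found together in 17.4% of ND cells beside 17.4%, and in 12.9% of HFD cells beside 11.4%. In these capillary cells the share with both genes thus lay within 2 percentage points of the product. Pgf was held by few cells, with 347 UMIs in 101 of the ND endothelial cells, 40.6% of them in 10 cells. The 10 cells with most Kdr held 4.12% of its UMIs.

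Between the libraries, Nrp2 differed most among the 10 genes in endothelial cells. It was at 287 (277 to 297) CPM in ND and 154 (145 to 163) CPM in HFD, 1.86-fold lower in HFD, with a log2 ratio of -0.90 (-1.0 to -0.80). In Sema3g-gated cells it was at 286 (263 to 311) and 147 (129 to 166) CPM, in capillary cells with Cxcl9 at 398 (379 to 417) and 198 (173 to 225) CPM and in those without at 284 (261 to 308) and 172 (158 to 187) CPM. HFD was below ND with no overlap in each of these 3 groups, while luminal cells, with few UMIs, had 16.9 and 21.5 CPM. In macrophages, which also use neuropilins, Nrp2 was at 100 (85.1 to 117) and 75.7 (65.9 to 86.5) CPM. The share of endothelial cells with a UMI was 54.8% and 50.6% at median depths of 3885.5 and 5365 UMIs. After thinning, which left out 4 ND and 0 HFD cells, it was 23.8% and 15.0%, against 0.448% and 0.789% in fibroblasts. The log2 ratio was negative in all 13 alternatives computed for it, from -1.07 to -0.72.

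Kdr and Flt1 were somewhat higher in HFD endothelial cells, with log2 ratios of 0.35 (0.31 to 0.40) and 0.32 (0.28 to 0.36). With equal weight of the 6 endothelial groups the ratios were 0.15 and 0.02. Flt1 was at 1103 and 1445 CPM in capillary cells with Cxcl9, 1282 and 1419 CPM in those without and 1633 (1576 to 1692) and 1585 (1525 to 1646) CPM in Sema3g-gated cells, where the intervals overlapped. In the unnamed endothelial cells both were lower in HFD, Flt1 at 693 (621 to 770.5) and 276 (224 to 337) CPM and Kdr at 434 (378 to 496) and 293 (239 to 356) CPM. The direction thus depended on the group of cells. The unnamed cells were those that the other endothelial gates left over, with median depths of 2610 UMIs in ND and 4585.5 UMIs in HFD. Gpihbp1 in them was at 126 and 66.1 CPM and Vwf at 1035 and 1095 CPM, and 6 macrophage markers summed to 222 and 425 CPM. Whether this group held the same kinds of cells in both libraries was not tested.

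Nrp1 was at 512 (499 to 526) and 579 (562 to 597) CPM in endothelial cells, a log2 ratio of 0.18 (0.12 to 0.24) that was -0.02 without a limit on mitochondrial UMIs. In luminal cells it was lower in HFD, at 484 (451 to 518) against 342 (296 to 395) CPM. Flt4 had a log2 ratio of -0.33 (-0.51 to -0.15), while in capillary cells its levels of 56.3 (50.6 to 62.4) and 56.9 (50.1 to 64.3) CPM overlapped. Of its endothelial UMIs, 164 of 736 in ND came from 28 lymphatic cells and 17 of 387 in HFD from 6. The part of these lymphatic cells in the ratio was not tested. Tek was at 262 (252 to 271) and 251 (239 to 263) CPM, Angpt2 at 30.4 (27.2 to 33.9) and 30.4 (26.4 to 34.7) CPM, Pgf at 32.4 (29.0 to 35.9) and 33.0 (28.9 to 37.6) CPM and Vegfa at 53.0 (48.7 to 57.5) and 53.8 (48.5 to 59.5) CPM. Overlap in these 4 genes does not show that their levels were equal.

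Vegfc was at 16.5 (14.2 to 19.1) and 10.0 (7.83 to 12.6) CPM, 1.65-fold lower in HFD, from 177 and 71 UMIs, but its log2 ratio was 0.52 after thinning. It was lower in HFD in luminal cells, 45.9 and 17.9 CPM, and in Sema3g-gated cells, 28.9 (21.8 to 37.7) and 8.26 (4.51 to 13.9) CPM, but not in capillary cells, 4.34 (2.88 to 6.27) and 8.76 (6.23 to 12) CPM. The capillary group held different shares of cells with Cxcl9, 830 of 1444 in ND and 175 of 796 in HFD.

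At 1.5-fold, 2 of 10 genes were lower in HFD endothelial cells, Nrp2 and Vegfc, where 14.8% of the 9259 genes past the minimum of 100 UMIs were, and 0 of 10 were higher, where 4.08% were. The share of lower genes among the 10 was near that of all genes. The median log2 ratio of all genes was -0.16. Scaling to the median of ratios added 0.18 to every ratio, so that Nrp2 stood at -0.72, Vegfc at -0.54, Flt1 at 0.50 and Kdr at 0.53, and the signs of Tek and Angpt2 turned, to 0.12 and 0.18. All genes past the limit then split into 771 lower and 673 higher in place of 1366 and 378, and 1 of the 10, Nrp2, stayed past it.

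In capillary cells 1 of the 9 genes counted was lower by this limit, Nrp2 at -1.02 (-1.14 to -0.90), against 15.3% of all genes, and 0 were higher, against 5.13%. In luminal cells 0 of 5 were past it, against 10.7% of genes lower and 6.06% higher.

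**Figure D3:**
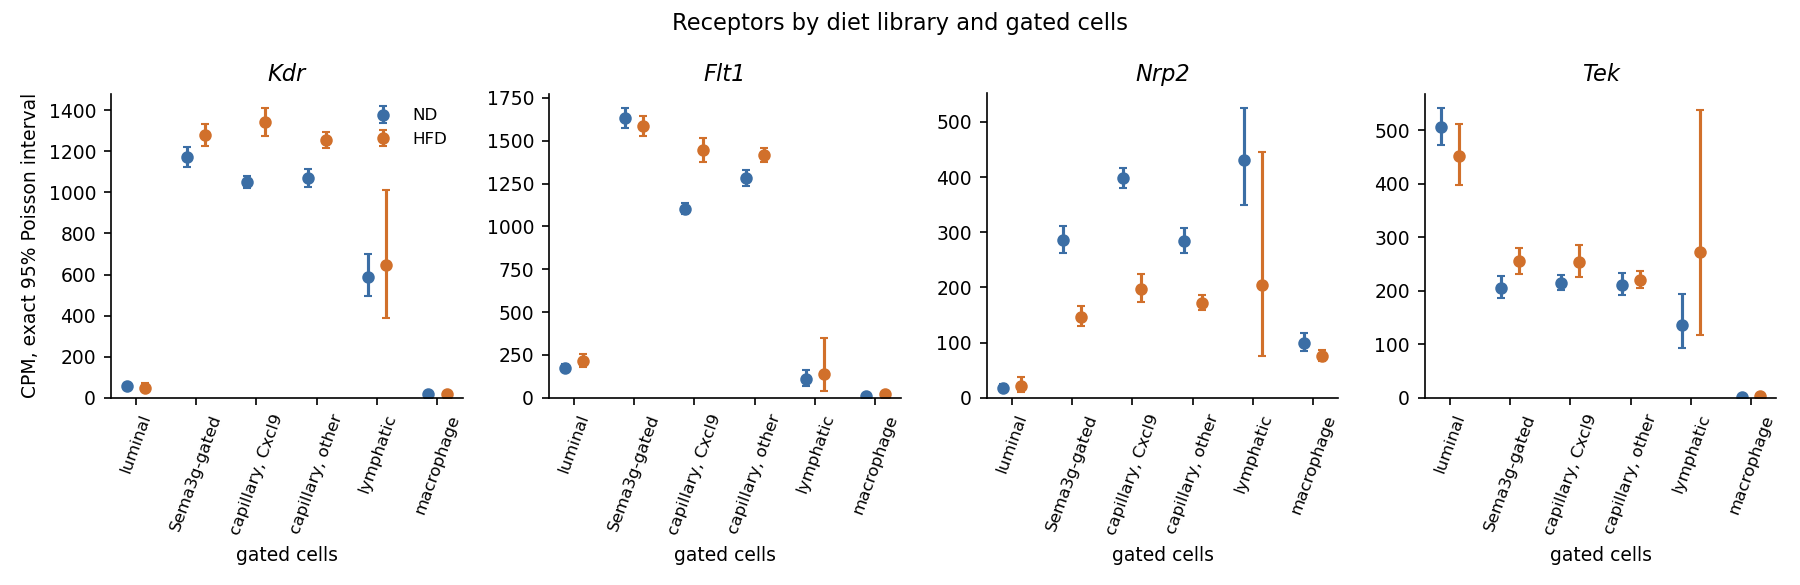
CPM of Kdr, Flt1, Nrp2 and Tek in luminal, Sema3g-gated, capillary, lymphatic and macrophage cells of the ND and HFD libraries, with exact 95% Poisson intervals. Nrp2 in HFD lies below ND in Sema3g-gated and both capillary groups, where Kdr in HFD lies above ND.

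**Figure D4:**
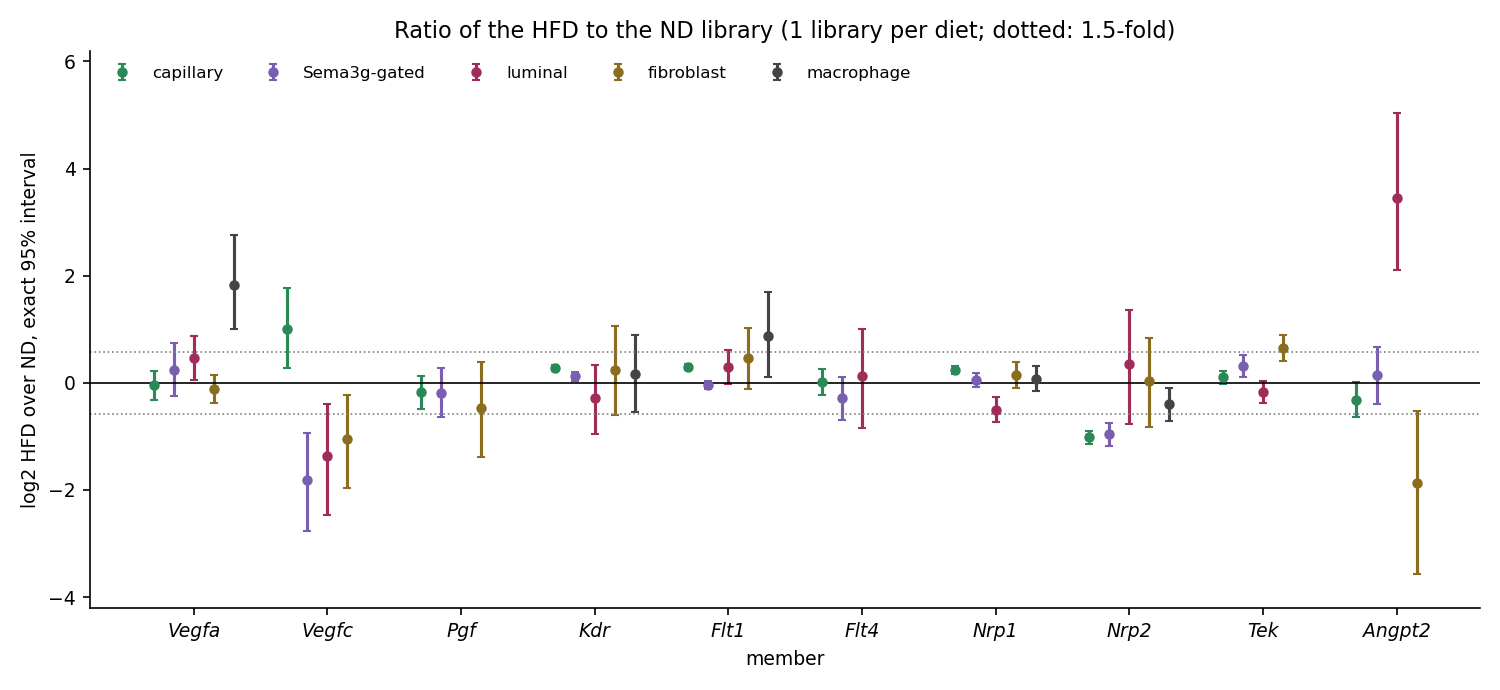
Log2 ratio of HFD over ND for the 10 genes in capillary, Sema3g-gated, luminal, fibroblast and macrophage cells, with exact 95% conditional binomial intervals and dotted lines at 1.5-fold, for genes whose UMIs of ND and HFD sum to 20 or more. Nrp2 is negative in capillary and Sema3g-gated cells, and the high luminal value of Angpt2 rests on 6 HFD cells.

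Outside the endothelium, Vegfa had many sources. Its highest levels in ND were in 21 adipocytes, at 291 (236 to 355) CPM, and 73 neutrophils, at 191 (129 to 272) CPM, which overlapped. Airway epithelial cells, at 105 (84.8 to 128) CPM, fibroblasts, at 104 (93.5 to 114) CPM, and luminal cells followed with overlapping intervals. B cells, at 8.21 (4.59 to 13.5) CPM, and macrophages, at 8.81 (4.81 to 14.8) CPM, were lowest. In HFD, 6 adipocytes had 299 (194 to 442) CPM. Of the HFD groups with at least 20 cells, monocytes were highest, with 179 (108 to 279) CPM from 19 UMIs in a group of 22 cells. This interval overlapped with those of luminal cells, at 134 (106 to 169) CPM, and fibroblasts, at 96.1 (82.3 to 112) CPM. In these monocytes 7 endothelial markers summed to 1184 CPM, and to 789.5 CPM without Cd36, and their part was not tested. Macrophages of HFD had 31.3 (25.2 to 38.6) CPM.

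Macrophage Vegfa was thus 3.56-fold higher in HFD, a log2 ratio of 1.83 (1.01 to 2.76), from 14 UMIs in 9 of 316 cells and 89 UMIs in 38 of 404 cells. In HFD 10 cells held 56.2% of these UMIs. Vegfa was 1 of the 3 genes counted in macrophages that was at least 1.5-fold higher, against 7.7% of all genes, and 0 of 3 were lower, against 13.4%. With cells of several lineages kept, the ratio was 0.53.

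Macrophages were divided, after these values were seen, by a UMI each of Gpnmb and Trem2, genes of lipid-laden macrophages, or of Lyve1 and Folr2, genes of resident macrophages. In HFD, Vegfa was at 40.6 (29.4 to 54.7) CPM in 95 cells with the first pair, 7.94 (2.91 to 17.3) CPM in 132 cells with the second and 39.9 (28.5 to 54.3) CPM in 173 cells with neither. In ND the first pair was found in 2 cells, and Vegfa was at 3.67 (0.756 to 10.7) CPM in 165 cells with the second pair and 13.9 (6.68 to 25.6) CPM in 149 with neither. Cells with Lyve1 and Folr2 were therefore the lowest in HFD, with no overlap with the other groups. Nrp1, by contrast, was highest in them, at 183 (155 to 215) and 239 (206 to 277) CPM, against 122 (102 to 145) CPM in the cells with Gpnmb and Trem2 of HFD.

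UMIs of the receptors were also counted in immune gates. Kdr was at 7.66 (4.19 to 12.9) CPM in ND B cells and 16.4 (10.7 to 24.0) and 18.3 (13.7 to 24.0) CPM in macrophages, where all 7 endothelial markers were counted, 667 and 471 CPM in sum against 11704 and 12388 CPM in endothelial cells. Of the macrophage sums, 560.4 and 355 CPM were Cd36, a lipid scavenger receptor that macrophages also use, and the other 6 markers summed to 107 and 116 CPM. Nrp2 in ND B cells was at 34.5 (26.5 to 44.1) CPM, above Kdr in counts (63 and 14 UMIs), whereas in ND endothelial cells Kdr had more UMIs (9493 and 3077). The UMIs of the pair thus stood in another ratio in B cells than in endothelial cells. Only 15 B cells passed in HFD, with 1 UMI of Nrp2.

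Fibroblasts carried Tek as well as ligands. Tek was at 83.0 (74.1 to 92.8) CPM in 916 ND fibroblasts and 131 (114 to 148) CPM in 380 HFD fibroblasts, against 5.47 (2.62 to 10.1) CPM in ND B cells and 1.26 and 3.17 CPM in macrophages. All 7 endothelial markers were counted in fibroblasts, 139 and 204 CPM in sum, and 98.2 and 120.0 CPM without Cd36. Their part in the fibroblast values was not tested. After thinning, which left out 24 ND cells, 7.74% and 13.9% of fibroblasts had a UMI of Tek, against 1.38% of ND B cells. Before thinning the fibroblast shares were 21.8% and 39.7%, at median depths of 3896 and 4452 UMIs. The log2 ratio of HFD over ND was 0.65 (0.40 to 0.90), and Tek was 1 of the 4 genes counted in fibroblasts that was at least 1.5-fold higher, against 4.04% of all genes, with 0 of 4 lower against 13.3%.

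Tek was uneven among fibroblasts, which were divided after the values were seen by 2 UMIs of Pi16, a gene of adventitial fibroblasts, or of Fmod, a matrix proteoglycan. In ND, Tek was at 129 (115 to 145) CPM in 517 cells with Pi16 only and 18.7 (10.5 to 30.9) CPM in 219 cells with neither. In 74 cells with Fmod only it had 0 UMIs, and against the limit of 3 UMIs over the group, 10.7 CPM, the Pi16 level was at least 12.1-fold higher. In 106 cells with both genes it was at 2.58 (0.0653 to 14.4) CPM, from 1 UMI, near 0 as in the cells with Fmod only. In HFD, Tek was at 159 (138 to 182) CPM in 266 cells with Pi16 only and 53.3 (33.8 to 80.1) CPM in 102 with neither. Within cells with Pi16 only the log2 ratio of HFD over ND was 0.30 (0.04 to 0.56), below the 1.5-fold limit. Cells with Pi16 only made up 517 of 916 fibroblasts in ND and 266 of 380 in HFD.

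The ligands Vegfc and Angpt2 had the other order in ND fibroblasts. Vegfc was at 64.0 (37.9 to 101) CPM in cells with Fmod only and 8.30 (5.00 to 13.0) CPM in cells with Pi16 only, and Angpt2 at 49.8 (27.2 to 83.5) and 0.437 (0.0111 to 2.44) CPM. Vegfa was at 53.3 (29.8 to 87.9) and 115 (101 to 129.7) CPM in these groups, and at 115 (92.6 to 141) CPM in cells with neither gene and 49.0 (29.5 to 76.6) CPM in cells with both. In ND, 5 markers of smooth muscle and pericytes summed to 494 CPM in cells with Fmod only and 64.7 CPM in cells with Pi16 only. Their part in these values was not tested. Only 5 HFD cells had Fmod alone, and HFD gives no value for the contrast of Fmod and Pi16 cells.

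**Figure D5:**
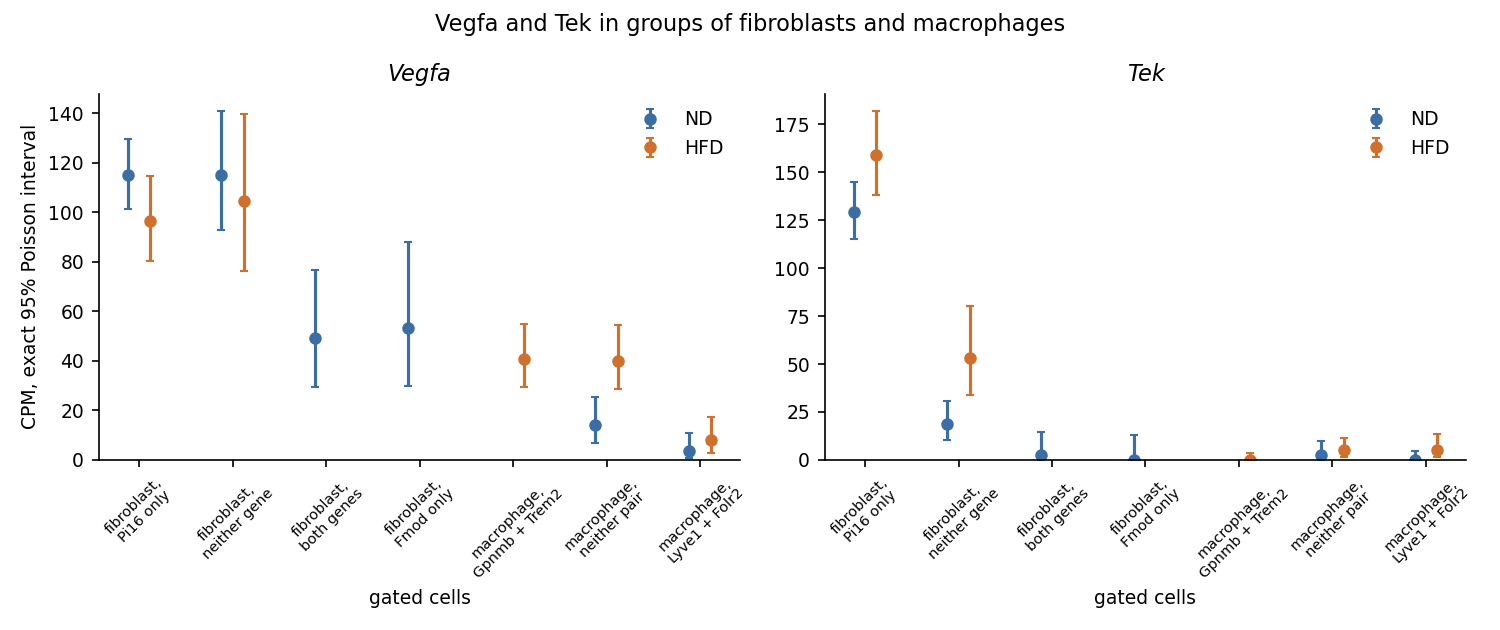
CPM of Vegfa and Tek in fibroblasts with Pi16 only, neither gene, both genes or Fmod only and in macrophages with Gpnmb and Trem2, neither pair or Lyve1 and Folr2, for groups of at least 20 cells of the ND and HFD libraries, with exact 95% Poisson intervals. Of these groups, Tek is highest in fibroblasts with Pi16 only in both libraries, and macrophage Vegfa in HFD is lowest in cells with Lyve1 and Folr2.

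Other genes of the pathway were taken from lists of 50 genes, of which 49 were counted. At 1.5-fold in endothelial cells, the genes induced by VEGF had 3 of 10 with at least 100 UMIs lower in HFD and 0 higher, with a median log2 ratio of -0.50, and receptors and their partners 2 of 14 lower and 0 higher, with a median of -0.31. Other ligands, a list that also held angiopoietin-like genes, had 1 of 3 higher and 0 lower. The 1 higher was Angptl4, described below as an inhibitor of lipoprotein lipase. Semaphorins had 1 of 2 lower and 0 higher, and both lists had medians of -0.30. The 5 oxygen sensing genes had 0 either way, with a median of -0.15. Neither of the 2 ligand processing genes had enough UMIs. Of all genes, 14.8% were lower and 4.08% higher, with a median of -0.16.

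Among the pathway genes with 100 UMIs or more, the 6 furthest between the libraries were Esm1, Sema3d, Angptl4, Gab1, Plxnd1 and Egr3. Esm1, a secreted proteoglycan of VEGF-stimulated endothelial tip cells, was at 10.7 CPM in ND and 1.84 CPM in HFD, -2.55 (-3.50 to -1.72) on the log2 scale, from 115 and 13.0 UMIs. Plxnd1, a semaphorin receptor, was at 361 CPM in ND and 188 CPM in HFD, -0.94 (-1.03 to -0.85) on the log2 scale. Egr3, an early response gene of VEGF, was at 225 CPM in ND and 119 CPM in HFD, -0.92 (-1.03 to -0.81) on the log2 scale. Egr3 was also lower in HFD in fibroblasts, at 80.6 and 13.9 CPM, and in macrophages, at 26.4 and 9.51 CPM. Its lower level was thus not particular to endothelial cells. Plxnd1 was at 22.6 and 11.7 CPM in fibroblasts and 108 and 95.4 CPM in macrophages, and Esm1 at 6.39 and 6.67 CPM in fibroblasts. Gab1, a docking protein of receptor kinases, was at 26.0 CPM in ND and 13.4 CPM in HFD, -0.96 (-1.31 to -0.61) on the log2 scale. Sema3d, a neuropilin ligand, was at 8.48 CPM in ND and 3.81 CPM in HFD, -1.15 (-1.83 to -0.52) on the log2 scale. Of its 91 UMIs in ND, 6 were in luminal and 2 in capillary cells, and of its 27 in HFD, 0 and 1. Its ratio thus rests on the other endothelial groups. Angptl4, an inhibitor of lipoprotein lipase, was the only one of the 6 higher in HFD, at 129 CPM in ND and 258 CPM in HFD, 1.0 (0.90 to 1.11) on the log2 scale. It was at 10.9 and 30.5 CPM in luminal and 163 and 293 CPM in capillary cells. Angptl4 was also higher in HFD in fibroblasts, at 78.5 and 127 CPM, and in macrophages, at 6.92 and 21.8 CPM. Its higher level was thus not particular to endothelial cells. Gab1 was at 27.4 and 15.6 CPM in fibroblasts and 22.6 and 21.1 CPM in macrophages.

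Likeness to other genes was described by Pearson's r of log2(CPM + 10) over 27 sums of cells by gate and library, among 12256 genes, with no test, since the sums share libraries and depth. The 3 genes most like Kdr were Robo4 (r = 0.96), Adgrl4 (r = 0.96), Ushbp1 (r = 0.95), and most like Flt1 Cyyr1 (r = 0.98), Adgrl4 (r = 0.97), Aqp1 (r = 0.96). Tek stood nearest to Ramp2 (r = 0.96), Fgd5 (r = 0.95), Dchs1 (r = 0.93), and Flt4 to Klhl4 (r = 0.96), Hoxd8 (r = 0.95), Thsd1 (r = 0.94). For the co-receptors they were Tmcc3 (r = 0.91), Stx12 (r = 0.89), Lrrc8a (r = 0.89) for Nrp1 and Rasgrp3 (r = 0.85), Cebpg (r = 0.84), Pcdh17 (r = 0.83) for Nrp2. For the ligands they were Mgst1 (r = 0.83), Sqor (r = 0.81), Thbs1 (r = 0.76) for Vegfa, Crispld1 (r = 0.91), Pdgfd (r = 0.88), Fblim1 (r = 0.87) for Vegfc, Tnc (r = 0.83), Gm9917 (r = 0.83), Pcdh12 (r = 0.82) for Pgf and Synm (r = 0.93), Mid2 (r = 0.89), Smtn (r = 0.89) for Angpt2. The highest r of each gene ranged from 0.83 for Vegfa and Pgf to 0.98 for Flt1.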

How the data were processed

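Droplet libraries (10x) of whole aortic arch cells were used, 1 of ND and 1 of HFD. The values are raw UMI counts per gene and barcode that the authors deposited for each library. Per the submitters' notes they came from Cell Ranger on mm10, with bcl2fastq, UMI-tools, Seurat 3.2.0 and R 4.0.0 also listed, and the matrix header names Cell Ranger 3.0.1. A table of both libraries joined was not used.

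Kept barcodes had 200 or more genes, 200 or more UMIs and a mitochondrial share of up to 30%. Cells were assigned to 16 gates by marker UMIs, and cells passing gates of several lineages were left out in place of a doublet caller. UMIs were summed per gate and library, which had 27137322 (ND) and 17191279 (HFD) UMIs in kept cells. Intervals are exact Poisson, Clopper-Pearson or conditional binomial, and a count of 0 was bounded by 3 UMIs. Background shares cover genes with at least 100 UMIs in both groups together. Thinning drew 1000 UMIs per cell. The named genes are the 10 genes in every gate, the 6 genes of the pathway lists furthest between diets and the 3 genes most like each. Genes and lists were chosen with earlier results of these data known. The steps ran in Python 3.11.15 (numpy 2.4.6, scipy 1.17.1, pandas 2.3.3, scanpy 1.11.5, matplotlib 3.10.9), and the interval code was tested on simulated data. Alternatives changed the cell filter, gates, doublets, scaling, weighting and thresholds.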

Additional observations from a re-analysis of the deposited data

Results flagged for a closer look

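The log2 ratios of HFD over ND were compared between 6 groups, the luminal, Sema3g-gated, capillary and unnamed endothelial cells, fibroblasts and macrophages; the smaller gates and the divisions of these groups were not searched. In 6 of the 10 genes the log2 ratio of HFD over ND had opposite signs in 2 of these groups, with both intervals away from 0. These differences were not tested, since each diet has 1 library, and the pairs were picked as the furthest apart among these 6 groups.

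Vegfc, the ligand of FLT4, was higher in HFD capillary cells, 1.01 (0.28 to 1.77), and lower in Sema3g-gated cells, -1.81 (-2.77 to -0.94), a difference of 2.82 that rests on 28 and 39 capillary UMIs. Vegfc was at 2.73 and 11.4 CPM in capillary cells with Cxcl9 and 7.81 and 7.86 CPM in the others, and cells with Cxcl9 were 830 of 1444 in ND and 175 of 796 in HFD. Nrp1 was higher in capillary cells, 0.24 (0.17 to 0.32), and lower in luminal cells, -0.50 (-0.73 to -0.27), a difference of 0.74. Angpt2 was higher in luminal cells, 3.44 (2.10 to 5.04), where 1 HFD cell held 17 of 22 UMIs, and lower in fibroblasts, -1.86 (-3.57 to -0.52), a difference of 5.31.

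The other 3 pairs involve the unnamed endothelial cells, whose depth and macrophage marker levels differed between the libraries. Kdr was higher in capillary cells, 0.27 (0.22 to 0.33), and lower in the unnamed cells, -0.57 (-0.92 to -0.22), a difference of 0.84. Flt1 was higher in macrophages, 0.87 (0.11 to 1.69), and lower in the unnamed cells, -1.33 (-1.67 to -1.0), a difference of 2.2, and the macrophage levels were 12 and 21.8 CPM beside 12 and 63.6 CPM in B cells. The B cell value of HFD rested on 3 of 15 cells with 7 UMIs, and 1 cell held 5 of these UMIs. Tek was higher in fibroblasts, 0.65 (0.40 to 0.90), and lower in the unnamed cells, -0.96 (-1.40 to -0.53), a difference of 1.61.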

How the results depend on the processing

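No paired analysis was possible because each diet has 1 library, and for the same reason no replicate could be left out. Of the values for whole comparisons, 103 kept within their limits under an alternative and 21 moved. Of those for single genes 637 did not move beyond their interval and 132 did. In 33 the sign differed from the value in the report, in 30 of them where the interval of that value spanned 0, mostly for Pgf, Tek, Angpt2 and Vegfa. The other 3 were Nrp1 without a mitochondrial limit, -0.0205 in endothelial and -0.0201 in capillary cells, and Vegfc after thinning, 0.52 in endothelial cells. The cause was not tested.

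Of the 10 genes, 1 in place of 2 was lower in HFD endothelial cells with the mean of per-cell CPM, thinning, no cells over 1% haemoglobin or the median of ratios, and that 1 was Nrp2. All genes lower, 1366, became 2740 without a mitochondrial limit, 606 after thinning, 771 with the median of ratios and 2427 with a minimum of 20 UMIs. All genes higher, 378, became 657 without mitochondrial, haemoglobin and ribosomal protein genes, 193 after thinning, 673 with the median of ratios and 790 with a minimum of 20 UMIs. Of the luminal counts, 1 higher in ND became 0 at 20% mitochondrial UMIs, without the top 6% of Scrublet scores, after thinning and without luminal cells holding Gpihbp1 (an alternative added after seeing the data), where Vegfc had fewer than 100 UMIs. After thinning, 3 genes in ND and 2 in HFD were lower in luminal cells, in place of 5 and 4. With cells of several lineages kept, 3 genes in ND and 3 in HFD were higher in endothelial than in other cells, in place of 8 and 7, and after thinning 4 in HFD. Both kinds of setting leave fewer UMIs or place the same cells on both sides.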

Other observations

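Vegfd and Svep1, ligands outside the 10 genes, were higher in fibroblasts than in endothelial cells of both libraries. Vegfd, a ligand of FLT4, was at 171 CPM in ND and 211 CPM in HFD fibroblasts, and at 1.68 and 1.98 CPM in endothelial cells. Within ND fibroblasts it was at 430.1 CPM in cells with Fmod only and 124 CPM in cells with Pi16 only, the same order as Vegfc. Svep1, an extracellular ligand of the angiopoietin and TIE pathway, was at 292 and 319 CPM in fibroblasts and 0.653 and 3.39 CPM in endothelial cells. Angpt1, the activating ligand of TEK, was at 20.8 CPM in ND fibroblasts, from 78 UMIs, and 3.89 CPM in HFD, from 7 UMIs. With 1 library per diet these values were not tested.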
